A study of Mus musculus with 13 samples.

Results

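Solute carriers are membrane proteins that move amino acids, sugars, ions, metals, vitamins and mitochondrial metabolites, and their genes carry symbols of the form Slc, family number, a, member number. This account follows 153 such genes in macrophages of mouse sciatic nerve, macrophages of mouse optic nerve and microglia of mouse brain. The 153 were selected on their measured counts: of 334 genes with such a symbol, among 48587 gene symbols in the count table, they reached at least 50 counts in at least 4 of 13 libraries. 10 further genes of the family (Slc2a1, Slc2a3, Slc2a5, Slc6a2, Slc7a11, Slc7a13, Slc11a1, Slc16a1, Slc16a3 and Slc40a1) were set aside by name, and 171 were below the count rule. The study profiled macrophages of the nervous system by bulk RNA sequencing, and its bulk design has 4 sciatic nerve, 4 optic nerve and 5 brain libraries. Every library was labelled as total RNA from C57BL/6J mice, with no treatment, age, sex or gate in the labels. The other assays of the series, microarrays and single cells after nerve crush, were not analysed here. The labels name no separate animals, so p-values measure the spread between these libraries, which may be technical.

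Cell surface carriers set what a macrophage can take up or release, while carriers of the lysosome return amino acids, nucleosides, sugars and metals from digested material to the cytosol. Mitochondrial carriers of the Slc25 family link cytosolic and mitochondrial pools of nucleotides, phosphate, carboxylates and iron. In the nervous system, microglia and nerve macrophages meet glutamate, taurine, choline, folate and metals released by neighbouring neurons and glia, and clear them together with cell debris.

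Total counts per library ran from 10877914 (brain library 1) to 23498764, and a level is given below as CPM, the count divided by the TMM-scaled library size, times 1000000. Where no read of a gene was counted in a tissue, its level could still reach 0.0512 (sciatic nerve), 0.0409 (optic nerve) or 0.0265 CPM (brain) by counting error alone. The macrophage genes Csf1r and Cd68 were at 4150.4 to 14631 and 812 to 1761 CPM over the 13 libraries. The 6 macrophage markers were not even across tissues. In sciatic nerve against brain 2 were higher and 3 lower, beside 24.1% and 24.3% of all tested genes, with Csf1r among the lower. Cd14 was at 8043 to 10430, 4006 to 5607 and 450 to 699 CPM in sciatic nerve, optic nerve and brain, and Adgre1 at 1409 to 2026, 372 to 457 and 469 to 939 CPM. The microglial marker P2ry12 was at 128 to 158 CPM in sciatic nerve libraries, 2325 to 2539.9 CPM in optic nerve libraries and 4841 to 10466 CPM in brain libraries, and Tmem119 at 4.33 to 8.57, 1424 to 2054 and 3123 to 5420.2 CPM. Fibroblast markers summed to 197 to 412, 12.5 to 41.3 and 2.27 to 7.65 CPM in the same order. Oligodendrocyte markers summed to 164 to 229.9, 259.6 to 329 and 123 to 177 CPM. Of these sums, 111 to 152, 98.2 to 161 and 70.7 to 117 CPM were Cnp, which was not called in any comparison. Of 5 tested, 3 were higher in optic nerve than in brain (Mbp, Mag and Mobp), beside 19.6% of all tested genes. In sciatic nerve against brain 2 were higher and 1 lower, beside 24.1% and 24.3%. Schwann cell markers summed to 1033 to 1181, 529 to 744 and 340.4 to 751 CPM, nearly all of it Pmp22 (1024 to 1173, 520.0 to 737 and 326 to 750.3 CPM), with 2 of 5 tested higher in sciatic nerve than in brain and Sox10 at 0 in sciatic nerve. Astrocyte markers summed to 19.5 to 88.8, 6.86 to 25.1 and 1.14 to 5.21 CPM. The sciatic nerve sum was mostly Gja1 (18.1 to 83.9 CPM), a gene not specific to astrocytes, while Gfap was at 0 to 0.0654 CPM and Aqp4 at 0 there. The part of these cell types in the differences below was not tested. Brain libraries 1 and 2 stood apart from brain libraries 3 to 5. Both were below all of brain libraries 3 to 5 for 72 of the 153 carriers (47.1%), against 31.1% of the 10713 genes that meet the same count rule, and both were above for 16 (10.5%), against 24.5%. Bulk libraries cannot tell fewer cells of a type from less RNA per cell.

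The carriers differed between the tissues in both directions, and the carriers called against brain were more often lower than higher in the nerves. A gene was called when its adjusted p (edgeR quasi-likelihood F-test, Benjamini-Hochberg over 13246 genes) was under 0.05. Where a group has few or no counts of a gene, the fitted log2 fold change depends on the prior count and is no bound. In sciatic nerve against brain, 35 carriers were called higher and 50 lower, which is 22.9% and 32.7% of them, against 24.1% and 24.3% of all tested genes. In optic nerve against brain, 25 were higher and 41 lower (16.3% and 26.8%), against 19.6% and 17.4% of all tested genes. In sciatic against optic nerve, 25 were higher and 28 lower (16.3% and 18.3%), against 10.9% and 10.9% of all tested genes. Among genes that meet the count rule, the higher and lower shares were 25.9% and 26.5% in sciatic nerve against brain, 21.9% and 19.2% in optic nerve against brain, and 12% and 12.4% between the nerves. The called share in either direction was 48.4%, 36.9% and 21.8% of all tested genes in these 3 comparisons. Among the 10713 genes that meet the count rule it was 52.3%, 41.2% and 24.4% in that order, and among the carriers it was 55.6%, 43.1% and 34.6%. In both comparisons against brain, the carriers' share called in either direction lay near that of the genes that meet the count rule. Their lower shares were larger, at 32.7% and 26.8% beside 26.5% and 19.2%. Their higher shares were smaller, at 22.9% and 16.3% beside 25.9% and 21.9%. These differences were not tested. The nerve comparisons against brain share the brain libraries.

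The libraries of the groups did not overlap for 65 carriers in sciatic nerve against brain, where 41.3% of all tested genes and 44.6% of those that meet the count rule did not overlap. The number was 52 in optic nerve against brain (31.8% and 35.2%) and 62 in sciatic against optic nerve (29.9% and 33%). The median log2 fold change of the carriers was -0.24, -0.31 and -0.03 in the 3 comparisons, against -0.09, -0.08 and 0.00 over all tested genes. Without brain libraries 1 and 2, 38 carriers were higher and 62 lower in sciatic nerve against brain, where 27.5% of all tested genes were higher and 24.3% lower. In the same fit 27 were higher and 55 lower in optic nerve against brain, where the shares of all tested genes were 23.7% and 18.5%.

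The count rule itself bears on these numbers. 137 carriers reached 50 counts in a library of each of the 3 tissues, 10 in libraries of 2 tissues and 6 in libraries of 1. For these 16 the rule itself can select for unequal counts. The 6 are Slc5a10, Slc9a4, Slc10a6, Slc25a24, Slc36a2 and Slc41a2. The 10 are Slc1a3, Slc15a2, Slc18a2, Slc22a15, Slc25a29, Slc25a35, Slc28a2, Slc37a1, Slc39a4 and Slc39a12. The folds, p-values and lack of overlap of these 16 below are no independent support, since the rule bears on the same counts. The same limit holds for carriers among the 137 that reached 50 counts in only 1 library of a tissue. Examples are Slc1a5 and Slc2a6 in brain and Slc24a3 in sciatic nerve. The class counts include all of these. Among the 137, 28 were higher and 42 lower in sciatic nerve against brain (20.4% and 30.7%), 21 and 38 in optic nerve against brain (15.3% and 27.7%), and 19 and 22 in sciatic against optic nerve (13.9% and 16.1%). Between the nerves the called share in either direction was 34.6% of the 153 and 29.9% of the 137, against 24.4% of the genes that meet the count rule. The carriers just inside the rule had a count of 55 in the library that ranked 4th (Slc29a2), 64 (Slc36a2), 65 (Slc22a21) and 69 (Slc25a43), and those just outside had 49 (Slc22a18) and 43 (Slc10a1, Slc43a1 and Slc6a8).

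**Figure D1:**
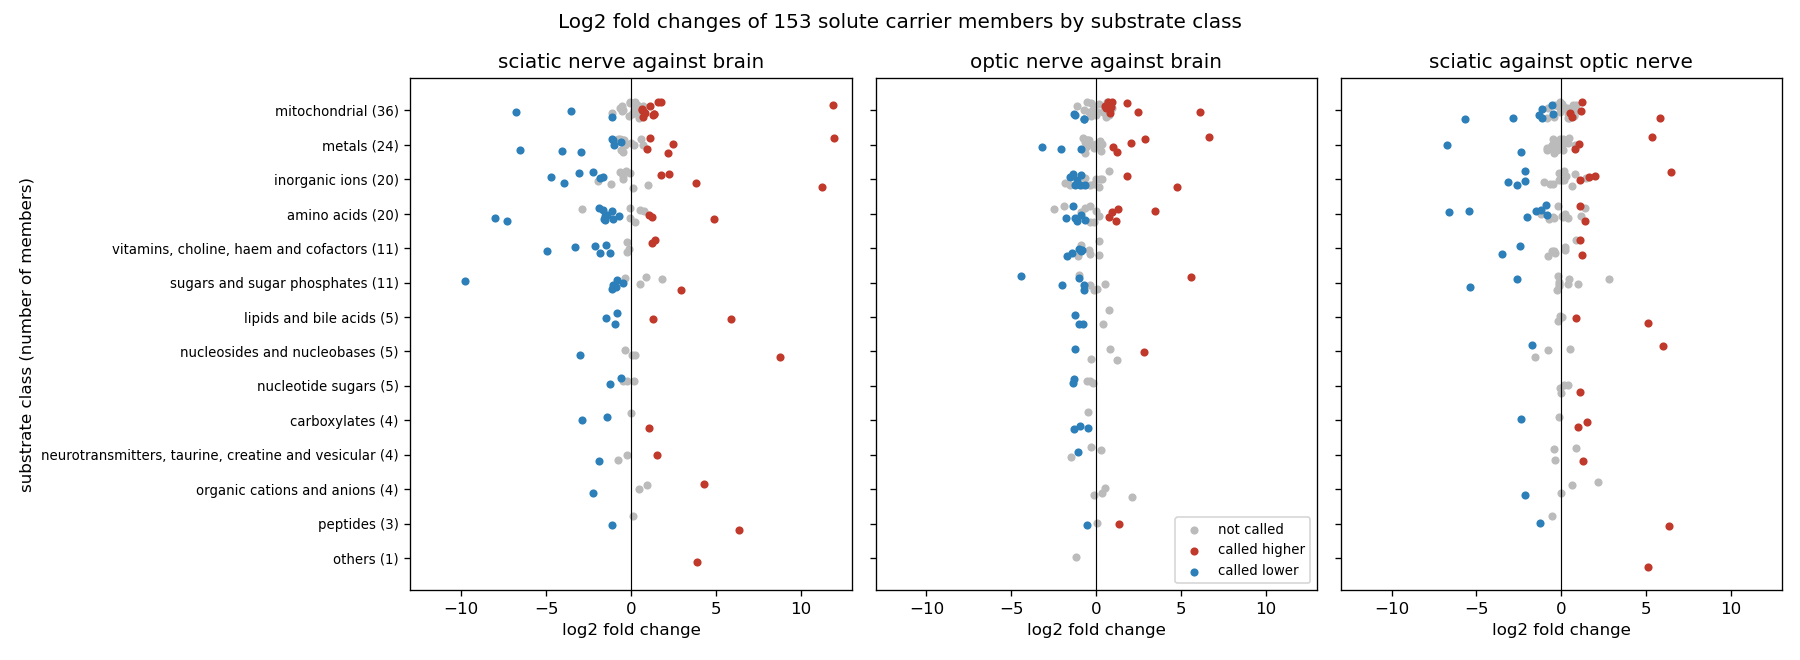
Log2 fold change of each of the 153 carriers (horizontal axis) by substrate class (vertical axis, number of carriers in brackets) in the 3 comparisons. Each point is 1 gene, red where called higher, blue where called lower and grey where not called. Mitochondrial carriers called against brain lie mostly to the right of 0 (12 higher and 3 lower in sciatic nerve), and amino acid carriers mostly to the left (3 higher and 11 lower in sciatic nerve).

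Among the 20 amino acid carriers, the glutamate transporter Slc1a3 was high in brain and nearly absent from sciatic nerve, while the glutamine exchanger Slc1a5 had the opposite order. In sciatic nerve against brain 3 were higher and 11 lower, with a median log2 fold change of -1.07, which is 15% and 55% beside 24.1% and 24.3% of all tested genes. In optic nerve against brain 5 were higher and 6 lower (25% and 30% beside 19.6% and 17.4%, median -0.53). In sciatic against optic nerve 2 were higher and 7 lower (10% and 35% beside 10.9% and 10.9%, median -0.46). Slc1a3 (chr15:8634124-8710764 in mm10, the build used for all positions here) takes up glutamate and aspartate with sodium and is best known from astrocytes. It measured 1.44, 0.277, 0.144 and 1.33 CPM in sciatic nerve libraries, 61.4, 78.7, 98.5 and 87.7 CPM in optic nerve libraries and 189.7, 242, 182, 220.3 and 223 CPM in brain libraries. The 3 tissues did not overlap. The log2 fold change was -8.02 (SE 0.46) for sciatic nerve against brain (edgeR adjusted p = 1.94e-09), -1.37 (SE 0.32) for optic nerve against brain and -6.64 (SE 0.44) for sciatic against optic nerve. The astrocyte gene Gfap was at 0 to 0.0654, 2.90 to 9.51 and 0 to 0.454 CPM in sciatic nerve, optic nerve and brain, and Aqp4 at 0 to 0, 0 to 0.112 and 0.0418 to 0.854 CPM. Whether astrocyte RNA contributes to Slc1a3 was not tested.

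Slc1a5 (chr7:16781340-16798274) exchanges neutral amino acids, glutamine among them. Its level was 53.03, 59.4, 39.6 and 43.8 CPM in sciatic nerve libraries, 14.6, 11.7, 22.2 and 24.97 CPM in optic nerve libraries and 0.982, 1.49, 1.40, 2.39 and 1.88 CPM in brain libraries. Each tissue was clear of the next. Sciatic nerve exceeded brain by 4.89 (SE 0.31) in log2 (29.6-fold, adjusted p = 7.38e-09 by edgeR), optic nerve exceeded brain by a log2 fold change of 3.47 (SE 0.30), and sciatic exceeded optic nerve by a log2 fold change of 1.41 (SE 0.29). Slc38a2, the sodium-coupled neutral amino acid carrier SNAT2, was also higher in both nerves than in brain. It measured 191, 292, 275 and 313 CPM in sciatic nerve libraries, 275, 253, 204 and 259.6 CPM in optic nerve libraries and 49.8, 93.0, 125, 148 and 146 CPM in brain libraries. All 8 nerve libraries lay above all 5 brain libraries, with log2 fold changes of 1.25 (SE 0.26) and 1.14 (SE 0.26). Sciatic and optic nerve overlapped for Slc38a2, and their difference of 0.11 (SE 0.27) was not called.

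Slc3a2 encodes the heavy chain (CD98) that carries the Slc7 light chains to the cell surface, and its light chains had different orders across the tissues. Slc3a2 was at 560.1 to 851 CPM in sciatic nerve libraries, 841 to 1110.3 CPM in optic nerve libraries and 394 to 705 CPM in brain libraries, higher in optic nerve than in brain, with a log2 fold change of 0.72 (SE 0.18) and not called in the other comparisons. Slc7a7, the light chain y+LAT1 for cationic amino acids, was at 56.2, 55.8, 49.7 and 51.2 CPM in sciatic nerve libraries, 94.1, 125, 134 and 130.2 CPM in optic nerve libraries and 103, 169, 171, 161 and 177 CPM in brain libraries. The sciatic nerve libraries lay below all others, with log2 fold changes of -1.55 (SE 0.18) against brain and -1.18 (SE 0.18) against optic nerve. Optic nerve overlapped brain, and its difference of -0.37 (SE 0.17) was not called with all libraries, while it was called without brain libraries 1 and 2 (log2 fold change -0.48, adjusted p = 0.0097 by edgeR).

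Slc7a6, the related light chain y+LAT2, peaked in optic nerve. It measured 9.22, 5.40, 5.83 and 4.33 CPM in sciatic nerve libraries, 27.4, 29.96, 19.9 and 22.8 CPM in optic nerve libraries and 10.4, 12.99, 13.9, 11.9 and 17.2 CPM in brain libraries, with no overlap between any pair of tissues. Optic nerve exceeded brain by a log2 fold change of 0.91 (SE 0.26), and sciatic nerve had a log2 fold change of -1.10 (SE 0.27) against brain and -2.01 (SE 0.29) against optic nerve. The large neutral amino acid light chain Slc7a5 (LAT1) was lower in sciatic nerve (15.4 to 31.8 CPM) than in optic nerve (54.0 to 74.2 CPM), with a log2 fold change of -1.51 (SE 0.37). Against brain, where library 1 at 18.3 CPM lay within the sciatic nerve range and the others spanned 64.1 to 86.5 CPM, the log2 fold change was -1.55 (SE 0.36). Slc7a8 (LAT2) measured 145, 129, 187 and 103 CPM in sciatic nerve libraries, 224, 196, 244 and 290.0 CPM in optic nerve libraries and 182, 273, 581, 632 and 591 CPM in brain libraries. It was lower in sciatic nerve than in brain, with a log2 fold change of -1.68 (SE 0.33), although brain library 1 lay within the sciatic nerve range. Its call in optic nerve against brain (log2 fold change -0.92, SE 0.32) was lost when any 1 of optic nerve libraries 1 to 3 or brain libraries 3 to 5 was left out, with an adjusted p of up to 0.101 by edgeR.

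Slc43a2 (LAT4), a facilitated carrier of branched-chain amino acids, was lower in optic nerve than in both other tissues. It was at 71.0 to 90.5 CPM in sciatic nerve libraries, 22.7 to 48.05 CPM in optic nerve libraries and 68.7 to 90.6 CPM in brain libraries, with log2 fold changes of -1.14 (SE 0.21) for optic nerve against brain and 1.11 (SE 0.22) for sciatic against optic nerve. The lysosomal carriers Slc38a7, which exports glutamine, and Slc38a9, which reports arginine to the growth regulator mTORC1, were lower in both nerves. Slc38a9 measured 21.97, 32.4, 18.7 and 21.3 CPM in sciatic nerve libraries, 20.8, 22.4, 15.4 and 13.8 CPM in optic nerve libraries and 79.9, 51.1, 64.6, 53.8 and 67.5 CPM in brain libraries. Both nerves lay below every brain library, with log2 fold changes of -1.43 (SE 0.22) and -1.81 (SE 0.23). For Slc38a7 the log2 fold changes were -1.04 (SE 0.21) and -1.23 (SE 0.21). Slc38a1 (SNAT1) was lower in sciatic nerve (19.4 to 30.7 CPM) than in brain (43.97 to 95.6 CPM), with a log2 fold change of -1.57 (SE 0.27), and Slc36a4, a lysosomal proline and tryptophan carrier, was not called in any comparison (-0.07, -0.10 and 0.04 in log2 for the 3 comparisons in the order above).

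Of the response genes of amino acid shortage, a list that holds the transcription factor Atf4 and its targets, 11 were tested, and Atf4 was higher in both nerves than in brain. Of the 11, 2 were higher and 4 lower in sciatic nerve against brain (median -0.54), 5 and 1 in optic nerve against brain (median 0.81), and 0 and 5 in sciatic against optic nerve (median -1.24), beside the shares of all tested genes given above (19.6% higher and 17.4% lower in optic nerve against brain). Asparagine synthetase (Asns) was not called, at 0.400 to 4.64, 2.85 to 4.85 and 0.320 to 7.77 CPM. Atf4 was at 397 to 599.6 CPM in sciatic nerve libraries, 675 to 926 CPM in optic nerve libraries and 85.2 to 137 CPM in brain libraries. Phgdh, the first enzyme of serine synthesis, was at 0.0692 to 1.18 CPM in sciatic nerve libraries, 24.7 to 32.9 CPM in optic nerve libraries and 22.9 to 42.1 CPM in brain libraries.

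**Figure D2:**
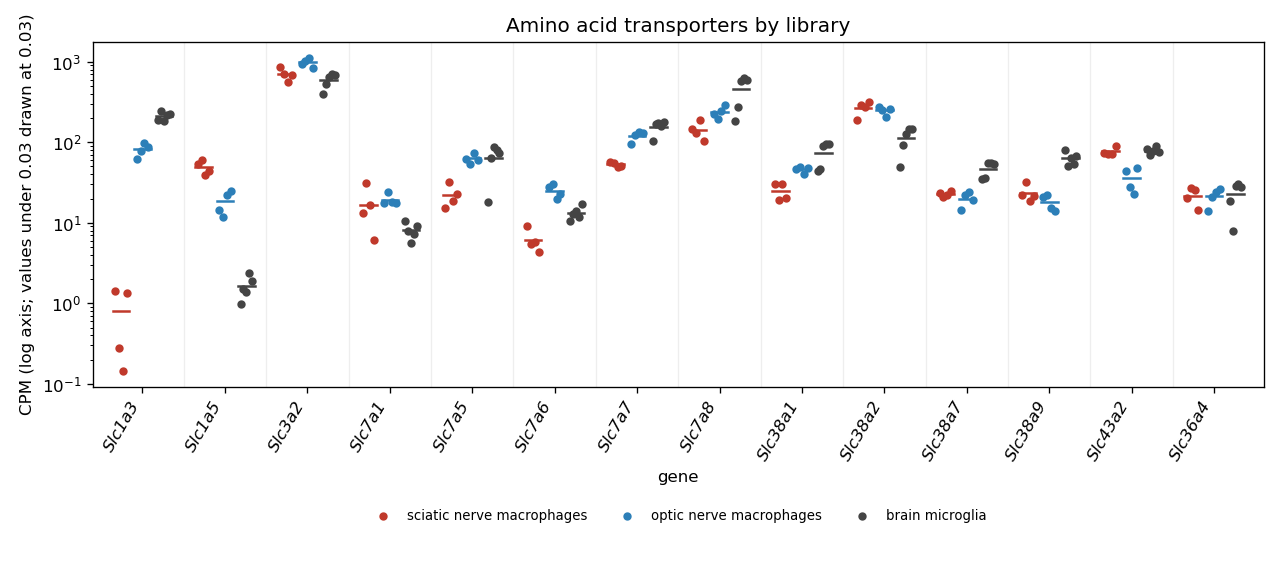
Level of 14 amino acid carriers in each library, in CPM on a log axis, with 1 point per library and a bar at the mean of each tissue (4 sciatic nerve in red, 4 optic nerve in blue, 5 brain in grey). Slc1a3 lies highest in brain and at most 1.44 CPM in sciatic nerve, Slc1a5 has the reverse order, and Slc7a6 is highest in optic nerve.

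Of the 3 peptide carriers, 1 was higher and 1 lower in each of the 3 comparisons (33.3% each way). All tested genes had 24.1% higher and 24.3% lower, 19.6% and 17.4%, and 10.9% and 10.9%. Slc15a2 (PEPT2, chr16:36750177-36784962) brings dipeptides and tripeptides across the plasma membrane, and it was highest in sciatic nerve. It measured 104, 124, 143 and 133 CPM in sciatic nerve libraries, 2.21, 2.31, 1.17 and 0.414 CPM in optic nerve libraries and 0.302, 4.63, 1.35, 0.984 and 0 CPM in brain libraries. The sciatic nerve libraries lay far above all others, with a log2 fold change of 6.37 (SE 0.80) against brain (adjusted p = 1.12e-05, edgeR) and 6.35 (SE 0.89) against optic nerve. Without brain library 2 the first difference was 7.52.

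Slc15a3 and Slc15a4 (PHT2 and PHT1) carry histidine and peptides out of endosomes and lysosomes. Slc15a3 was highest in optic nerve, at 44.3, 58.7, 50.2 and 50.6 CPM in sciatic nerve libraries, 110.3, 123, 129 and 116 CPM in optic nerve libraries and 80.2, 55.3, 31.9, 30.4 and 40.4 CPM in brain libraries. Optic nerve was clear of both other tissues, with a log2 fold change of 1.33 (SE 0.25) against brain and -1.23 (SE 0.26) for sciatic against optic nerve. Part of the Slc15a3 exons (28.1%) overlaps Tmem132a on the other strand, and without a stated strand setting reads of the 2 genes cannot be told apart. Slc15a4 was lower in sciatic nerve (58.0 to 99.2 CPM) than in brain (113 to 211 CPM). The log2 fold change was -1.13 (SE 0.21). Its call in optic nerve against brain (log2 fold change -0.57, adjusted p = 0.0423, edgeR) was lost in 8 of 13 fits without 1 library.

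Among nucleoside carriers, Slc28a2 was highest in sciatic nerve and Slc29a3 in brain. Slc28a2 (CNT2, chr2:122426477-122461137), which concentrates purine nucleosides and uridine with sodium, was at 92.3, 100.3, 112 and 111 CPM in sciatic nerve libraries, 1.81, 1.13, 0 and 3.73 CPM in optic nerve libraries and 0, 0, 0, 0 and 1.09 CPM in brain libraries. All sciatic nerve libraries lay far above the 9 others. The log2 fold change was 8.79 (SE 1.07) against brain and 5.96 (SE 1.00) against optic nerve. A single brain library held all brain counts of Slc28a2, and without it (brain library 5) the first value was 13.90, fitted against 0 counts, while without optic nerve library 4 the second was 6.70.

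Slc29a3 (ENT3, chr10:60712072-60752794), which lets nucleosides out of lysosomes, ran the other way. It measured 58.3, 36.5, 73.3 and 54.5 CPM in sciatic nerve libraries, 140.1, 193, 163 and 233 CPM in optic nerve libraries and 206, 268, 558, 571 and 593 CPM in brain libraries. Sciatic nerve lay below every other library, with a log2 fold change of -2.98 (SE 0.34) against brain and -1.71 (SE 0.33) against optic nerve. Optic nerve overlapped brain through brain library 1, and its log2 fold change against brain was -1.27 (SE 0.31). Over the 5 nucleoside and nucleobase carriers, 1 was higher and 1 lower in each of the 3 comparisons (20% each way). The shares of all tested genes were 24.1% and 24.3%, 19.6% and 17.4%, and 10.9% and 10.9%. The widely expressed surface carrier Slc29a1 (ENT1), named after its values were seen, was not called. It was at 164 to 249.7, 117 to 175 and 123 to 201 CPM in sciatic nerve, optic nerve and brain.

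Of the 11 vitamin, choline and haem carriers, haem carrier Slc48a1 and choline carrier Slc44a1 were called higher in sciatic nerve than in brain, and folate carrier Slc46a1 and choline carrier Slc44a2 lower in both nerves. Of the 11, 2 were higher and 6 lower in sciatic nerve against brain (median -1.25), 0 and 5 in optic nerve against brain (median -0.90), and 2 and 2 in sciatic against optic nerve (median -0.35). The lower share was 54.5% in sciatic and 45.5% in optic nerve, against 24.3% and 17.4% of all tested genes. The higher share was 18.2% and 0%, against 24.1% and 19.6%. Between the nerves both shares were 18.2%, against 10.9%. The differences were not tested. Their summed level was 365 to 494 CPM in sciatic nerve libraries, 502 to 621 CPM in optic nerve libraries and 538 to 1333 CPM in brain libraries, the lowest brain value being library 1.

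Slc44a2 (CTL2), a choline carrier of the plasma membrane and mitochondria, measured 17.8, 8.51, 13.2 and 8.73 CPM in sciatic nerve libraries, 131, 169, 119 and 132 CPM in optic nerve libraries and 132, 260.1, 498, 512 and 440.2 CPM in brain libraries. Sciatic nerve lay below all other libraries, with a log2 fold change of -4.93 (SE 0.41) against brain (30.5-fold lower, adjusted p = 1.31e-07, edgeR) and -3.51 (SE 0.39) against optic nerve. The family member Slc44a1 (CTL1) went the other way, at 77.3 to 178 CPM in sciatic nerve against 22.4 to 63.7 CPM in brain, a log2 fold change of 1.26 (SE 0.32). Slc46a1 (PCFT), the proton-coupled folate carrier, was at 31.1, 22.8, 23.8 and 22.3 CPM in sciatic nerve libraries, 107, 127, 159 and 153 CPM in optic nerve libraries and 161, 275, 249.7, 252 and 274 CPM in brain libraries. The 3 tissues were ordered without overlap, with a log2 fold change of -3.28 (SE 0.21) for sciatic nerve against brain, -0.83 (SE 0.19) for optic nerve against brain and -2.45 (SE 0.20) for sciatic against optic nerve.

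Its lysosomal relative Slc46a3 was lower in sciatic nerve (29.1 to 45.1 CPM) than in brain (72.8 to 182 CPM), with a log2 fold change of -1.84 (SE 0.28), and lower in optic nerve (54.1 to 75.4 CPM), with a log2 fold change of -1.04 (SE 0.27), where the libraries overlapped. Slc48a1 (HRG1) moves haem out of the lysosome after red cells or haem proteins are digested. It measured 134, 119, 104 and 102 CPM in sciatic nerve libraries, 35.1, 36.8, 61.7 and 66.6 CPM in optic nerve libraries and 29.1, 46.8, 43.9, 50.1 and 49.9 CPM in brain libraries. Sciatic nerve was clear of both other tissues, with a log2 fold change of 1.38 (SE 0.22) against brain and 1.20 (SE 0.24) against optic nerve, and optic nerve did not differ detectably from brain (log2 fold change 0.19, SE 0.22). Slc33a1, which brings acetyl-CoA into the endoplasmic reticulum, was lower than brain (29.4 to 49.8 CPM) in sciatic nerve (6.66 to 15.3 CPM) and optic nerve (7.80 to 20.3 CPM), with log2 fold changes of -2.15 (SE 0.33) and -1.73 (SE 0.33). Its exons share 32% of their bases with Gm26850 on the other strand.

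Among the 11 sugar and sugar phosphate carriers, Slc2a6 (GLUT6) was the one called higher in either nerve than in brain. Its protein sits on lysosomes. It measured 9.48, 6.64, 13.8 and 12.2 CPM in sciatic nerve libraries, 48.5, 74.3, 86.9 and 51.4 CPM in optic nerve libraries and 1.74, 0, 0.140, 2.88 and 2.004 CPM in brain libraries. Optic nerve lay above sciatic nerve and sciatic nerve above brain, with a log2 fold change of 5.60 (SE 0.77) for optic nerve against brain and 2.96 (SE 0.71) for sciatic nerve against brain. The difference between the nerves (log2 fold change -2.63, SE 0.73) was called with all libraries and lost without sciatic nerve library 2 (adjusted p = 0.0544, edgeR). Slc37a2, which moves glucose-6-phosphate across the endoplasmic reticulum membrane, was lower in sciatic nerve (75.5 to 85.7 CPM) and optic nerve (76.5 to 96.1 CPM) than in brain (116 to 194 CPM), with log2 fold changes of -1.13 (SE 0.16) and -0.98 (SE 0.16).

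Slc37a3, a lysosomal carrier, was lower in optic nerve (3.43 to 8.93 CPM) than in brain (15.6 to 25.5 CPM), with a log2 fold change of -2.01 (SE 0.36). Slc5a10 (SGLT5), a sodium-coupled carrier of mannose and fructose known from kidney, had 0 counts in sciatic nerve. It was at 0 to 0.837 CPM in optic nerve and 7.10, 5.20, 4.76, 8.90 and 3.63 CPM in brain, so that brain was at least 115-fold higher than sciatic nerve when the latter is set at 3 counts over the group. For optic nerve against brain the log2 fold change of Slc5a10 was -4.41 (SE 1.14), and -5.98 without optic nerve library 3. In all, 1 sugar carrier was higher and 6 lower in sciatic nerve against brain (median -0.50). In optic nerve against brain 1 was higher and 5 lower (median -0.72), and in sciatic against optic nerve 0 and 2 (median -0.14). The lower share against brain was 54.5% in sciatic and 45.5% in optic nerve, beside 24.3% and 17.4% of all tested genes. The higher share was 9.09% in each, beside 24.1% and 19.6%. Between the nerves the lower share was 18.2%, beside 10.9%. These differences were not tested.

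Of the 4 carboxylate carriers, 1 was higher and 2 lower in sciatic nerve against brain, and 0 and 3 in optic nerve against brain. Between the nerves 2 were higher and 1 lower. Their higher and lower shares were 25% and 50%, 0% and 75%, and 50% and 25%. The shares of all tested genes were 24.1% and 24.3%, 19.6% and 17.4%, and 10.9% and 10.9%. Slc16a6 (MCT7), linked to ketone bodies, measured 25.1, 25.8, 25.9 and 29.7 CPM in sciatic nerve libraries, 136, 129, 156 and 140.1 CPM in optic nerve libraries and 239, 195, 186, 179.8 and 191 CPM in brain libraries. The tissues did not overlap, and sciatic nerve had a log2 fold change of -2.89 (SE 0.14) against brain and -2.40 (SE 0.14) against optic nerve. Slc16a7 (MCT2), which takes up lactate, pyruvate and ketone bodies, measured 89.1, 76.7, 118 and 92.2 CPM in sciatic nerve libraries, 32.8, 35.2, 35.2 and 28.1 CPM in optic nerve libraries and 23.2, 46.4, 48.5, 51.8 and 57.5 CPM in brain libraries. Sciatic nerve was clear of both, with a log2 fold change of 1.05 (SE 0.22) against brain and 1.52 (SE 0.24) against optic nerve. Slc16a13, an orphan of the same family, was lower in both nerves than in brain, with log2 fold changes of -1.41 (SE 0.29) and -1.28 (SE 0.29). The exons of Slc16a6 share 21.5% of their bases with Amz2 on the other strand.

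Some monocarboxylate carriers need a chaperone to reach the membrane, and the chaperones embigin and basigin differed between sciatic nerve and brain. Embigin (Emb) was at 141 to 216 CPM in sciatic nerve libraries, 0.323 to 2.90 CPM in optic nerve libraries and 0 to 3.70 CPM in brain libraries, a log2 fold change of 8.11 (SE 1.05) for sciatic nerve against brain. Basigin (Bsg) was at 357 to 430.0 CPM in sciatic nerve and 512 to 557 CPM in brain, a log2 fold change of -0.48 (SE 0.11). The list of transporters and partners with other symbols, to which both belong, had 20 tested genes. Of these 5 were higher and 9 lower in sciatic nerve against brain (median -0.49). In optic nerve against brain 4 were higher and 6 lower (median -0.04), and in sciatic against optic nerve 4 and 4 (median -0.09). The shares of all tested genes were 24.1% and 24.3%, 19.6% and 17.4%, and 10.9% and 10.9%. The organic anion carrier Slco4a1 was at 0 to 0.0692 CPM in sciatic nerve libraries, 15.5 to 25.3 CPM in optic nerve libraries and 25.99 to 79.7 CPM in brain libraries.

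**Figure D3:**
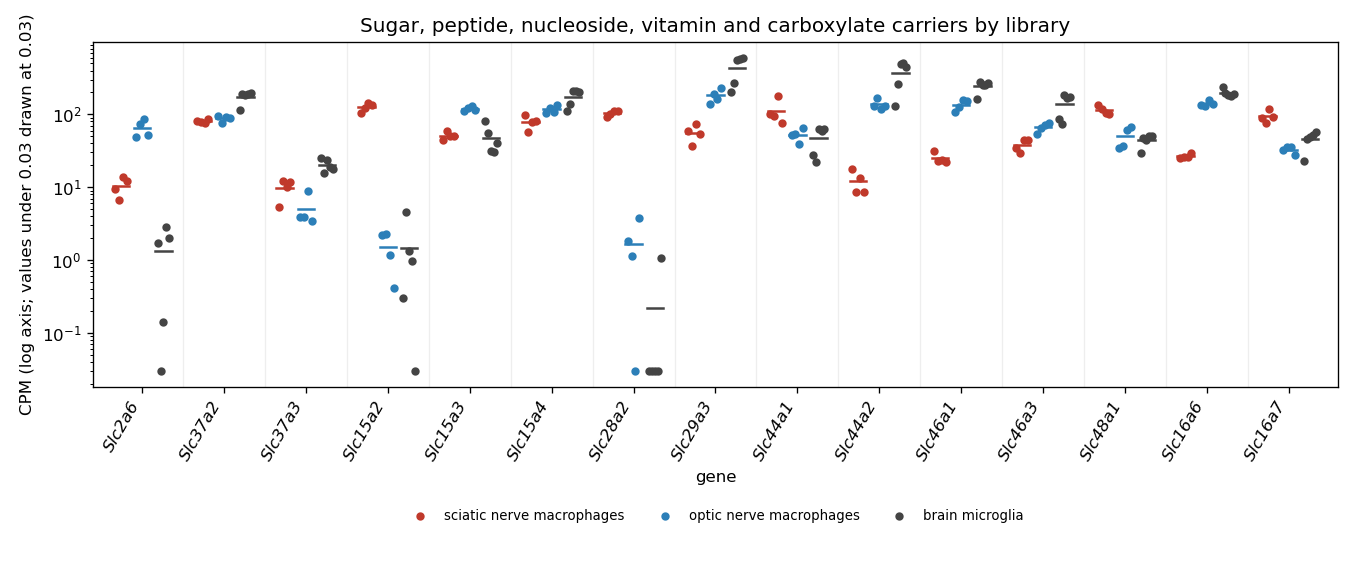
Level of 15 sugar, peptide, nucleoside, vitamin and carboxylate carriers in each library, in CPM on a log axis, with 1 point per library and a bar at the mean of each tissue (4 sciatic nerve in red, 4 optic nerve in blue, 5 brain in grey). Slc15a2 and Slc28a2 stand at 92.3 CPM or more in sciatic nerve and at 4.63 CPM or less elsewhere, while Slc29a3, Slc44a2 and Slc46a1 are lowest in sciatic nerve.

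Among the 20 inorganic ion carriers, chloride and potassium carriers of the Slc12 family differed in both directions. Slc12a2 (NKCC1), which loads cells with sodium, potassium and chloride and restores volume after shrinkage, measured 14.1, 11.1, 13.8 and 11.9 CPM in sciatic nerve libraries, 90.7, 85.6, 55.3 and 80.2 CPM in optic nerve libraries and 144, 173, 222, 199 and 253 CPM in brain libraries. The tissues did not overlap, and the log2 fold change was -3.96 (SE 0.22) for sciatic nerve against brain (15.6-fold lower, adjusted p = 1.28e-09, edgeR), -1.35 (SE 0.19) for optic nerve against brain and -2.62 (SE 0.21) for sciatic against optic nerve. Slc12a9, a relative with no settled substrate, had the same order, at 13.1 to 26.6, 64.9 to 107 and 141 to 189.8 CPM in sciatic nerve, optic nerve and brain, and a log2 fold change of -3.07 (SE 0.23) for sciatic nerve against brain.

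Slc12a7 (KCC4), which exports potassium with chloride, was higher in sciatic nerve (51.8, 49.9, 89.1 and 43.1 CPM) than in optic nerve (14.8, 26.998, 12.001 and 21.8 CPM) and brain (8.99, 14.1, 16.4, 22.5 and 22.5 CPM), with log2 fold changes of 1.63 (SE 0.34) and 1.79 (SE 0.32). Slc12a4 (KCC1), an exporter of the same kind, was not called in any comparison, at 19.7 to 34.8, 18.97 to 30.98 and 19.4 to 30.3 CPM. Of 6 genes of cell volume and osmotic control, 1 was higher and 1 lower in sciatic nerve against brain (median 0.46). In optic nerve against brain 1 was higher and 0 lower (median -0.18), and in sciatic against optic nerve 0 and 1 (median 0.22). The shares of all tested genes were 24.1% and 24.3%, 19.6% and 17.4%, and 10.9% and 10.9%.

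Slc20a1 (PiT-1), a sodium-coupled phosphate importer, was highest in sciatic nerve. It measured 76.4, 103, 87.0 and 60.5 CPM in sciatic nerve libraries, 18.3, 19.6, 20.04 and 23.4 CPM in optic nerve libraries and 3.25, 9.64, 6.25, 6.51 and 3.55 CPM in brain libraries. No tissue overlapped another, with a log2 fold change of 3.80 (SE 0.30) for sciatic nerve against brain (13.9-fold), 1.79 (SE 0.28) for optic nerve against brain and 2.01 (SE 0.30) for sciatic against optic nerve. The sodium and proton exchanger Slc9a4 (NHE4), known from stomach and kidney, was present in sciatic nerve at 10.9, 18.8, 10.4 and 24.4 CPM and had 0 counts in brain, at least 610-fold higher in sciatic nerve by the same 3-count floor. Optic nerve held 0.101, 0.592, 0 and 0 CPM of Slc9a4, and sciatic exceeded optic nerve by a log2 fold change of 6.47 (SE 1.09), or 8.56 without optic nerve library 2.

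Endosomal Slc9a9 (NHE9) was lower in optic nerve (119 to 147 CPM) than in sciatic nerve (241 to 345 CPM) and brain (158 to 361 CPM), with a log2 fold change of -1.14 (SE 0.22) against brain and 1.10 (SE 0.23) for sciatic against optic nerve. Slc24a3, which exchanges sodium for calcium and potassium, measured 0, 1.38, 4.10 and 0.266 CPM in sciatic nerve and 25.5, 43.2, 44.3, 40.2 and 33.4 CPM in brain, a log2 fold change of -4.71 (SE 0.81) (-6.08 without sciatic nerve library 3). Slc26a11, a sulfate carrier of lysosomes, was higher in sciatic nerve (9.34 to 19.9 CPM) than in brain (0.585 to 4.77 CPM), with a log2 fold change of 2.21 (SE 0.60). The class had 4 higher and 6 lower in sciatic nerve against brain (20% and 30%, beside 24.1% and 24.3% of all tested genes, median -0.49). In optic nerve against brain 2 were higher and 7 lower (10% and 35%, beside 19.6% and 17.4%, median -0.66). In sciatic against optic nerve 4 were higher and 4 lower (20% and 20%, beside 10.9% and 10.9%, median 0.09).

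Of the 24 metal carriers, the iron importer Slc11a2 and the zinc exporter Slc30a1 were higher in both nerves than in brain, and the zinc importers Slc39a4 and Slc39a8 were lower in sciatic nerve. Slc11a2 (DMT1, chr15:100387898-100425072) moves ferrous iron across the plasma membrane and out of endosomes. It measured 135, 155, 157 and 164 CPM in sciatic nerve libraries, 130.2, 129.7, 208 and 107 CPM in optic nerve libraries and 16.8, 22.7, 46.9, 37.9 and 47.3 CPM in brain libraries. All 8 nerve libraries exceeded all brain libraries, with log2 fold changes of 2.15 (SE 0.28) and 2.06 (SE 0.28), and the nerves overlapped each other (log2 fold change 0.09, SE 0.29). Slc30a1 (ZnT1, chr1:191906767-191913247), which carries zinc out of the cell, was at 37.8, 49.9, 35.4 and 52.9 CPM in sciatic nerve libraries, 53.04, 69.4, 55.2 and 52.1 CPM in optic nerve libraries and 6.87, 5.73, 8.26, 9.54 and 9.44 CPM in brain libraries. The nerve libraries were again all above the brain libraries, with a log2 fold change of 2.46 (SE 0.21) in sciatic nerve (5.52-fold, adjusted p = 1.4e-07, edgeR) and 2.85 (SE 0.21) in optic nerve (7.20-fold).

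Slc30a1 and the metallothioneins are textbook targets of the zinc sensor Mtf1, which binds the metal response element in their promoters. Metallothionein Mt1 was at 1416 to 2122 CPM in sciatic nerve libraries, 479 to 617 CPM in optic nerve libraries and 39.04 to 77.4 CPM in brain libraries, and Mt2 at 136 to 261, 26.3 to 45.9 and 0.114 to 1.36 CPM. Both were called higher in each nerve than in brain, by 5.00 and 8.51 in sciatic nerve and by 3.40 and 6.11 in optic nerve (log2), while Mtf1 itself was not called (13.8 to 22.3, 17.5 to 30.9 and 15.2 to 24.99 CPM). Because Slc30a1 was called higher with them against brain, its upstream sequence is shown. It covers chr1:191906531-191906766 of GRCm38.p6 on the plus strand, from RefSeq, cut before the first exon base, with the metal response element match in capitals.
Slc30a1: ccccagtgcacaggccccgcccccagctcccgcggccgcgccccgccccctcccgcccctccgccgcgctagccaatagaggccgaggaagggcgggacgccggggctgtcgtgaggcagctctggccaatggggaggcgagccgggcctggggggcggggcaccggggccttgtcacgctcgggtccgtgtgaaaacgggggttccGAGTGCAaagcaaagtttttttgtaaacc
The motif searched was TGCACNC or TGCGCNC on either strand of the 250 bases before each start, and the match shown is on the reverse strand, 43 bases before the RefSeq start. Such a match was present in 21.4% of all 32851 windows and in 42 of the 156 windows of 115 carriers with an entry, so it is common.

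Slc41a1, a magnesium carrier, was higher in sciatic nerve (24.9 to 64.5 CPM) and optic nerve (29.6 to 61.8 CPM) than in brain (15.3 to 21.5 CPM), with log2 fold changes of 1.12 (SE 0.27) and 1.20 (SE 0.27). Its relative Slc41a2 was at 20.7, 34.4, 37.7 and 13.3 CPM in sciatic nerve and 1.01, 0, 1.51 and 0.0592 CPM in optic nerve. Brain had 0 counts of Slc41a2, and by the 3-count floor sciatic nerve was at least 988-fold higher. The pooled optic nerve counts, held mostly by libraries 1 and 3, lay 24.7-fold above that floor. The call of Slc41a2 in optic nerve against brain was lost with limma-voom (adjusted p = 0.0815). Between the nerves the log2 fold change of Slc41a2 was 5.34 (SE 1.02), or 6.16 without optic nerve library 3. Without that library the fitted value of optic nerve against brain went from 6.62 to 5.81.

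Slc39a4 (ZIP4), the zinc importer lost in an inherited zinc deficiency, was close to absent in sciatic nerve. It measured 0.392, 0, 0.0720 and 0 CPM in sciatic nerve libraries, 12.03, 13.3, 13.5 and 14.9 CPM in optic nerve libraries and 8.16, 20.9, 13.8, 6.93 and 7.89 CPM in brain libraries. Optic nerve lay within the brain range, and sciatic nerve lay below both, with a log2 fold change of -6.53 (SE 0.77) against brain and -6.75 (SE 0.78) against optic nerve. Without sciatic nerve library 1 these were -8.60 and -8.82. Slc39a8 (ZIP8), which imports zinc, manganese and iron, was also low in sciatic nerve, at 1.30 to 8.02 CPM in sciatic nerve libraries, 22.7 to 29.7 CPM in optic nerve libraries and 21.8 to 48.5 CPM in brain libraries, with a log2 fold change of -2.95 (SE 0.48) for sciatic nerve against brain.

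Slc39a10 (ZIP10) was lower in optic nerve than in brain (8.88 to 25.1 CPM, against 34.8 to 77.2 CPM in brain), with a log2 fold change of -2.06 (SE 0.33). Slc39a1 (ZIP1) was not called with all libraries, and brain libraries 1 and 2 (15.6 and 10.4 CPM) stood above brain libraries 3 to 5 (2.08 to 4.15 CPM). Without these libraries its log2 fold change against brain was 1.86 in sciatic nerve and 1.42 in optic nerve (adjusted p = 0.00134 and 0.00901, edgeR). Slc30a9, a zinc carrier of mitochondria, was not called in any comparison (34.5 to 49.04, 27.97 to 66.6 and 37.5 to 51.2 CPM). The class had 5 higher and 7 lower in sciatic nerve against brain (20.8% and 29.2%, beside 24.1% and 24.3% of all tested genes, median -0.46). In optic nerve against brain 5 were higher and 3 lower (20.8% and 12.5%, beside 19.6% and 17.4%, median -0.17). In sciatic against optic nerve 3 were higher and 2 lower (12.5% and 8.33%, beside 10.9% and 10.9%, median -0.13).

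**Figure D4:**
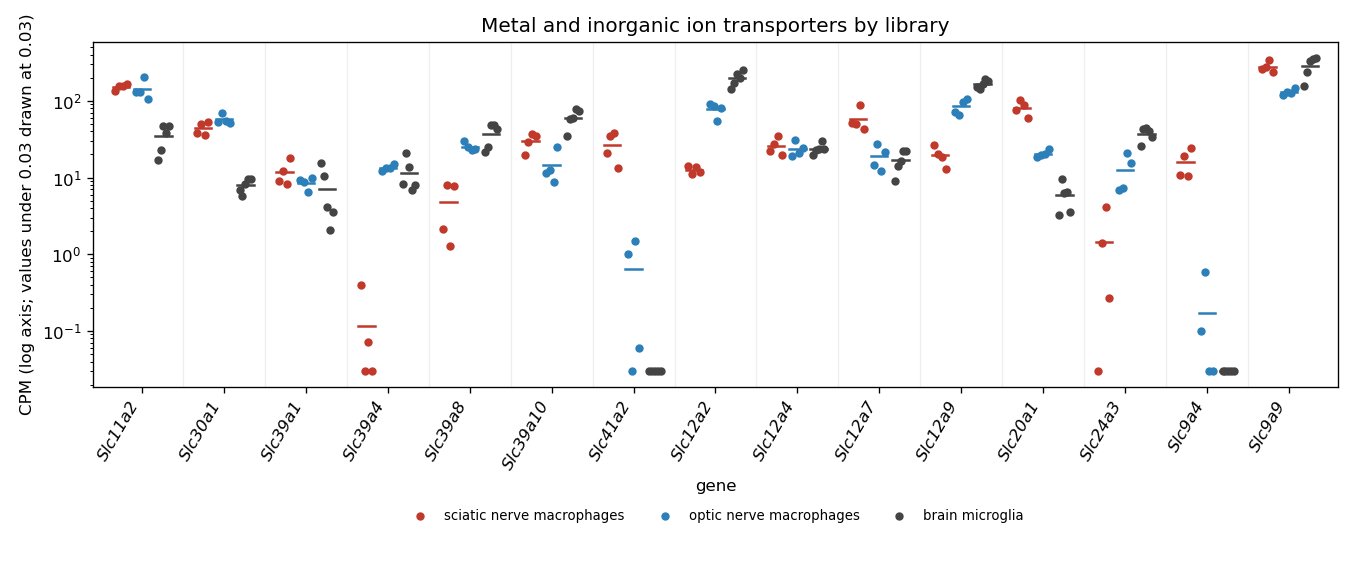
Level of 15 metal and inorganic ion carriers in each library, in CPM on a log axis, with 1 point per library and a bar at the mean of each tissue (4 sciatic nerve in red, 4 optic nerve in blue, 5 brain in grey). Slc11a2 and Slc30a1 lie above brain in both nerves, Slc12a2 and Slc12a9 fall from brain through optic to sciatic nerve, and brain points of Slc41a2 and Slc9a4 are 0 counts drawn at 0.03.

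Of the 36 mitochondrial carriers, the nucleotide carrier Slc25a33 and the phosphate carrier Slc25a3 were higher in both nerves than in brain. In sciatic nerve against brain 12 were higher and 3 lower (median 0.42), in optic nerve against brain 10 and 4 (median 0.28), and between the nerves 5 were higher and 7 lower in sciatic nerve (median 0.21). The higher share against brain was 33.3% in sciatic and 27.8% in optic nerve, beside 25.9% and 21.9% of the genes that meet the count rule, and the lower share was 8.33% and 11.1%, beside 26.5% and 19.2%. Between the nerves the shares were 13.9% and 19.4%, beside 12% and 12.4%. The differences from the background were not tested. Their summed level was 1603 to 1892 CPM in sciatic nerve libraries, 1688 to 1994 CPM in optic nerve libraries and 1151 to 1478 CPM in brain libraries. The mitochondrial share of counts, from genes of the mitochondrial genome, was highest in brain library 1 (3.79%) and 0.410% to 1.23% elsewhere.

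Slc25a25 and Slc25a24 encode carriers that exchange ATP-Mg for phosphate under the control of calcium, and their tissues differed. Slc25a25 (SCaMC-2, chr2:32414487-32451445) was highest in optic nerve, at 39.8, 27.5, 33.04 and 36.97 CPM in sciatic nerve libraries, 57.0, 111, 70.2 and 99.0 CPM in optic nerve libraries and 24.7, 23.6, 32.5, 16.1 and 24.1 CPM in brain libraries. Optic nerve was clear of both, with a log2 fold change of 1.80 (SE 0.23) against brain (3.48-fold) and -1.30 (SE 0.25) for sciatic against optic nerve. Slc25a24 (SCaMC-1, chr3:109123149-109168457) was at 58.2, 49.7, 54.6 and 75.3 CPM in sciatic nerve, 0, 2.26, 0.0558 and 1.95 CPM in optic nerve and 1 count over the 5 brain libraries. The ratio of sciatic nerve to brain was 6746, with a counting interval of 1210 to 266523, and the sciatic nerve level exceeded optic nerve by a log2 fold change of 5.80 (SE 0.85) (6.48 without optic nerve library 2).

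Because Slc25a25 was highest in optic nerve, 1 of its 3 RefSeq start sites is shown, the one whose upstream window holds a palindromic cAMP response element (TGACGTCA, in capitals). The 250 bases lie at chr2:32424067-32424316 of GRCm38.p6 on the minus strand, upstream of the start and outside annotated exons.
Slc25a25: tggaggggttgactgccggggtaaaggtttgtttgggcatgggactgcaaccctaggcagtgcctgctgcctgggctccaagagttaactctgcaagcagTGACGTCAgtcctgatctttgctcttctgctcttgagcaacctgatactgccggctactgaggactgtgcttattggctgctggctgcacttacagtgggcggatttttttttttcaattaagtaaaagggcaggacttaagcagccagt
This element, the same on both strands, was present in 1.55% of all 32851 windows of that length and in 3 of the 156 windows of carriers. Besides Slc25a25, it was found for Slc25a36, which was lower in optic nerve than in both other tissues, and for Slc38a6, called in no comparison. A link between the element and the level was not tested. The counts do not tell which start site was used.

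Slc25a33, a pyrimidine nucleotide carrier that supplies mitochondrial DNA and RNA synthesis, measured 37.9, 54.2, 26.3 and 40.4 CPM in sciatic nerve libraries, 83.9, 95.9, 96.3 and 70.8 CPM in optic nerve libraries and 18.1, 16.3, 17.1, 15.3 and 12.2 CPM in brain libraries. Optic nerve lay above sciatic nerve and sciatic nerve above brain, with a log2 fold change of 2.46 (SE 0.21) and 1.33 (SE 0.20) against brain and -1.13 (SE 0.22) between the nerves. Slc25a10, the dicarboxylate carrier, was instead highest in sciatic nerve, at 33.8 to 53.6 CPM against 14.4 to 26.7 CPM in optic nerve and 11.3 to 15.7 CPM in brain, with a log2 fold change of 1.74 (SE 0.22) against brain and 1.18 (SE 0.23) against optic nerve. Slc25a30, an uncoupling protein relative, was higher in sciatic nerve (7.27 to 8.11 CPM) than in brain (1.96 to 3.96 CPM), with a log2 fold change of 1.36 (SE 0.36).

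4 carriers of oxidative energy metabolism were chosen after their values were seen. The phosphate carrier Slc25a3 was at 315, 352, 259 and 312 CPM in sciatic nerve libraries, 232, 222, 237 and 194 CPM in optic nerve libraries and 135, 133, 129, 123 and 118 CPM in brain libraries. The tissues did not overlap, with a log2 fold change of 1.28 (SE 0.12) and 0.79 (SE 0.12) against brain. Slc25a20, which brings acylcarnitines in for fatty acid oxidation, was higher in sciatic nerve (35.6 to 39.9 CPM) and optic nerve (25.1 to 37.3 CPM) than in brain (16.4 to 20.5 CPM), with log2 fold changes of 1.12 (SE 0.17) and 0.89 (SE 0.17). The ADP/ATP carriers Slc25a4 and Slc25a5 were higher in optic nerve than in brain, with log2 fold changes of 0.54 (SE 0.12) and 0.92 (SE 0.15), and not called in sciatic nerve against brain (log2 fold change 0.03, SE 0.12, and 0.37, SE 0.15). Both have near-identical relatives or pseudogenes, and the labels do not say how reads that map to several places were counted.

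The mitoferrins Slc25a37 and Slc25a28 bring iron into mitochondria for haem and iron-sulfur cluster synthesis. Slc25a37 was not called in any comparison (15.3 to 21.8, 13.1 to 14.4 and 12.2 to 23.7 CPM in sciatic nerve, optic nerve and brain). Slc25a28 was higher in sciatic nerve (20.3 to 25.8 CPM) than in optic nerve (7.34 to 12.2 CPM), with a log2 fold change of 1.23 (SE 0.28). Slc25a46, an outer membrane protein of mitochondrial shape, was lower in optic nerve (19.3 to 23.2 CPM) than in brain (24.02 to 69.6 CPM), with a log2 fold change of -1.33 (SE 0.28), and Slc25a45 was lower in sciatic nerve (52.6 to 77.4 CPM) than in brain (86.9 to 175 CPM), with a log2 fold change of -1.12 (SE 0.23). The oxoglutarate carrier Slc25a11 and the ornithine carrier Slc25a15 were not called in any comparison, the former at 148 to 190.0, 144 to 189 and 148 to 201 CPM.

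**Figure D5:**
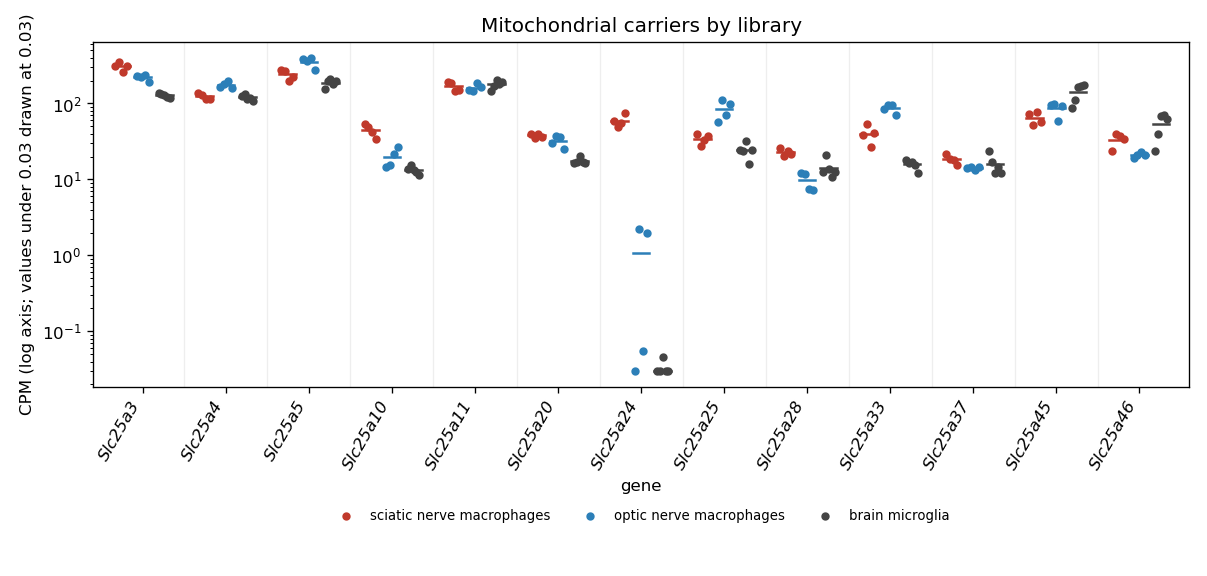
Level of 13 mitochondrial carriers in each library, in CPM on a log axis, with 1 point per library and a bar at the mean of each tissue (4 sciatic nerve in red, 4 optic nerve in blue, 5 brain in grey). Slc25a25 and Slc25a33 are highest in optic nerve, Slc25a10 and Slc25a24 in sciatic nerve, and Slc25a11 overlaps in all tissues.

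Among the smaller classes, the taurine carrier Slc6a6 (chr6:91684053-91759066) was higher in sciatic nerve. It measured 217, 206, 216 and 202 CPM in sciatic nerve libraries, 92.3, 84.4, 85.5 and 85.7 CPM in optic nerve libraries and 67.3, 66.3, 70.5, 79.8 and 80.8 CPM in brain libraries. Sciatic nerve was clear of both other tissues, with a log2 fold change of 1.53 (SE 0.12) against brain (adjusted p = 5.78e-08, edgeR) and 1.27 (SE 0.13) against optic nerve. The urea transporter Slc14a1 was at 51.6, 53.8, 94.9 and 83.7 CPM in sciatic nerve libraries, 3.82, 3.82, 0.614 and 0.0592 CPM in optic nerve libraries and 2.04, 2.46, 8.16, 3.56 and 8.10 CPM in brain libraries. Sciatic nerve was clear of both, with log2 fold changes of 3.86 (SE 0.68) against brain and 5.08 (SE 0.80) against optic nerve. Optic nerve and brain overlapped for Slc14a1.

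Of the 5 lipid carriers, 2 were higher and 3 lower in sciatic nerve against brain, and 0 and 3 in optic nerve against brain. Between the nerves 2 were higher and 0 lower. Their higher and lower shares were 40% and 60%, 0% and 60%, and 40% and 0%. The shares of all tested genes were 24.1% and 24.3%, 19.6% and 17.4%, and 10.9% and 10.9%. Slc10a6 (SOAT), which takes up sulfated steroids, was at 12.2, 9.89, 16.2 and 20.8 CPM in sciatic nerve libraries, 0.0503, 0, 0.0558 and 1.60 CPM in optic nerve libraries and 0, 0.605, 0.0466, 0.492 and 0 CPM in brain libraries. Every sciatic nerve library exceeded every other library, with a log2 fold change of 5.89 (SE 1.25) against brain (6.57 without brain library 2) and 5.12 (SE 1.33) against optic nerve (8.46 without optic nerve library 4). The fatty acid importer Slc27a1 was higher in sciatic nerve than in brain, with a log2 fold change of 1.27 (SE 0.25), and its relative Slc27a4 was lower, with a log2 fold change of -0.94 (SE 0.26). Slc10a7 was lower in both nerves (10.004 to 15.1 and 10.3 to 15.1 CPM) than in brain (21.5 to 43.7 CPM), with log2 fold changes of -1.45 (SE 0.27) and -1.27 (SE 0.26).

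Among organic ion carriers 1 was higher and 1 lower in sciatic nerve against brain (25% each, beside 24.1% and 24.3% of all tested genes). Slc22a17, also known as a receptor for lipocalin-2, was lower in sciatic nerve. It measured 4.45, 5.81, 2.59 and 3.80 CPM in sciatic nerve libraries, 21.4, 15.9, 20.7 and 15.3 CPM in optic nerve libraries and 17.9, 17.1, 19.4, 21.5 and 22.5 CPM in brain libraries, with a log2 fold change of -2.24 (SE 0.27) against brain and -2.14 (SE 0.28) against optic nerve. Slc22a15 was higher in sciatic nerve (5.33 to 9.89 CPM) than in brain (0 to 1.51 CPM), with a log2 fold change of 4.28 (SE 1.41), or 5.84 without brain library 1. Slc35a3, which loads the Golgi with UDP-N-acetylglucosamine, was lower in optic nerve (10.1 to 21.7 CPM) than in brain (23.7 to 61.0 CPM). The log2 fold change was -1.33 (SE 0.30). Of the 5 nucleotide sugar carriers, 2 were lower in sciatic and 2 in optic nerve than in brain. That is 40% each, beside 24.3% and 17.4% of all tested genes.

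Levels of different genes can be set side by side only per length, as CPM per kilobase of exon (GENCODE M21). On that scale Slc3a2 stood highest of the 153 in each tissue, at 198 in sciatic nerve, 278 in optic nerve and 168 in brain, followed by Slc25a5 at 147, 216 and 114. In sciatic nerve Slc48a1 (41.7), Slc28a2 (24.7) and Slc15a2 (17.1) exceeded Slc29a3 (9.54) and Slc46a1 (8.11). In brain Slc46a1 (78.6), Slc29a3 (75.3) and Slc44a2 (42.5) exceeded Slc48a1 (15.97), Slc15a2 (0.197) and Slc28a2 (0.0516). As a share of all counts in a library, the 153 carriers made up 0.560% to 0.644% in sciatic nerve, 0.704% to 0.773% in optic nerve and 0.732% to 1.13% in brain. Brain library 1 (0.732%) lay within the optic nerve range and the other brain libraries above it.

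Fibroblast markers were called higher in sciatic nerve than in brain for 6 of 6 tested, beside 24.1% of all tested genes. The microglial factor Sall1 was at 0.0666 to 0.216 CPM in sciatic nerve. The fibroblast gene Dcn spanned 10.1 to 83.4 CPM over the sciatic nerve libraries, highest in library 1. Over the same libraries Slc6a6 spanned 202 to 217 CPM, Slc15a2 104 to 143 CPM and Slc28a2 92.3 to 112 CPM. Library 1 was the lowest of the 4 for Slc15a2 and Slc28a2 and the highest for Slc6a6. Slc48a1, also high in sciatic nerve, ranked over the 4 libraries in the same order as Dcn, highest in library 1. The remaining carriers high in sciatic nerve were not set beside Dcn, and the part of fibroblast RNA in these levels was not tested.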

How the data were processed

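Macrophages of sciatic nerve (4 libraries) and optic nerve (4) and microglia of brain (5) from C57BL/6J mice gave total RNA for sequencing. The authors deposited raw counts of reads per gene symbol. STAR, featureCounts 1.5.1 and the build mm10 are named, per the submitters' processing notes. STAR's version, the annotation, strand use and handling of multi-mapping reads were not given in the sources used here. Nerve columns carry tissue initials and replicate numbers. The 5 remaining columns, whose prefix no label explains, were assigned to brain by elimination and keep their column numbers. Per-sample columns left unused numbered 0.

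Counts were fitted in R 4.3.3 with edgeR 4.0.16. The fit used filterByExpr by group (13246 genes, all 153 carriers among them), TMM scaling, all 13 libraries with tissue as factor, and quasi-likelihood F-tests of 3 contrasts. P-values were adjusted by Benjamini-Hochberg over all tested genes and called under 0.05. CPM use the TMM-scaled library size, and an SE is the size of the log2 fold change divided by the square root of F. Total counts of 10877914 to 23498764 per library limit the precision of low genes. A group with 0 counts is set at 3 counts over the group for a fold, and ratios against 1 to 3 counts have 95% Poisson intervals. The test was also run on simulated counts with the same spread set for every gene, and the outcome is not given here.

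The carriers, substrate classes and lists were chosen with earlier results of these data known. Named carriers are, per comparison and class, up to 3 higher and 3 lower called ones with the largest change of at least 1 in log2, a mean of at least 5 CPM in the higher group and no overlap of libraries. They include the 5 uncalled ones with the smallest changes and at least 10 CPM in every tissue, and 15 set by name. Slc25a3, Slc25a4, Slc25a5, Slc25a20 and Slc29a1 were chosen after their values were seen. No rule set which genes of the related and marker lists are named, such as Emb and Slco4a1. Alternatives were DESeq2 size factors, DESeq2 1.42.0, limma-voom (limma 3.58.1), 2 other filters on low counts, only the groups compared, each replicate left out, no brain libraries 1 and 2, a replicate block, and count rules of 20 and 100. Some carriers and markers are not reported here.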

Additional observations from a re-analysis of the deposited data

Results flagged for a closer look

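In groups of 4 or 5 libraries, 15 of 222 tissue values of the 74 named carriers (6.76%) held a library far from the others. The rule was Dixon's, the gap to the nearest library over the range, which flags about 1 in 20 normally spread groups by chance. That rate does not hold for groups near 0 counts, such as Slc25a24 and Slc28a2 in brain. Brain library 1 accounts for 4 of them. It was the highest for Slc16a6 (239 CPM, the others 180 to 195 CPM) and the lowest for Slc37a2 (116 CPM, others 185 to 194 CPM), Slc46a1 (161 CPM, others 250 to 275 CPM) and Slc7a7 (103 CPM, others 161 to 177 CPM). In other brain libraries, Slc25a28 was highest in library 2 (20.998 CPM), Slc28a2 had all its counts in library 5 (1.09 CPM) and Slc25a24 its 1 count in library 3 (0.0466 CPM).

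In optic nerve, library 4 was highest for Slc10a6 (1.598 CPM, others at most 0.0558 CPM), library 3 for Slc37a3 (8.93 CPM), library 1 for Slc6a6 (92.3 CPM), and library 2 for Slc7a1 (24.04 CPM) and Slc9a4 (0.592 CPM). In sciatic nerve, library 2 was highest for Slc33a1 (15.3 CPM), library 4 for Slc43a2 (90.5 CPM) and library 1 for Slc46a1 (31.1 CPM).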

How the results depend on the processing

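The number of called carriers stayed within 1.5 times the main number under every alternative run. Leaving out 1 library gave 31 to 35 higher and 46 to 59 lower in sciatic nerve against brain, 23 to 25 and 31 to 51 in optic nerve against brain, and 19 to 30 and 23 to 33 in sciatic against optic nerve. The other alternatives gave 31 to 39 and 46 to 62, 22 to 27 and 37 to 55, and 20 to 32 and 25 to 33. None of the 222 values of the 74 named carriers changed sign where called. Of 146 called values, 127 kept the call in all 13 fits without 1 library, and 125 under all alternatives. The 19 that lost it without at least 1 library include Slc7a8, Slc15a4, Slc28a2, Slc9a4 and Slc38a1 in optic nerve against brain. With the replicate number as a block in the 8 nerve libraries, 22 carriers were higher and 31 lower in sciatic against optic nerve. The labels do not say whether same-numbered nerve libraries are paired. Their deviations from the tissue means correlated at -0.05, 0.02, -0.07 and -0.06, beside -0.03 to 0.06 for differently numbered ones. Such values cannot settle whether the libraries share animals or a preparation. No block was possible against brain, whose columns match no numbered sample. Depth limits carriers with few counts, such as Slc5a10, Slc9a4, Slc41a2 and Slc25a24 outside their main tissue.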
